A study of Mus musculus with 4 samples.

Results

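Genes that accumulate late in red cell maturation were followed in mouse erythroleukemia (MEL) cells with and without Wdr26: Foxo3, Mxi1, Hemgn, Fam46c, Riok3, Fam210b, Ermap, Tspan33 and Aqp1. They were taken by symbol from the expression table, and all 9 of the 9 symbols were found among its 17393 genes. The cells belong to the DS19 line, a leukemic line arrested at an early erythroid stage, in which dimethyl sulfoxide can restart maturation. There were 2 libraries of Wdr26-/- cells, called knockout here, and 2 of wild-type cells, numbered 1 and 2 in each genotype, all from RNA depleted of ribosomal RNA. The growth text shared by all 4 samples names 1.5% dimethyl sulfoxide without stating if it was added to the cells that were sequenced. How the knockout was made, and whether its cells were a single clone, is unknown from the sources used here. The labels do not state that the libraries of each genotype are separate cultures. P-values therefore reflect how these 4 samples vary, which may be technical variation.

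In terminal erythroid maturation an erythroblast leaves the cell cycle, condenses and expels its nucleus, clears its organelles and keeps a membrane built for the circulation. Transcription factors such as GATA1 and FOXO3 drive much of this late program, while antagonists of MYC accompany the end of proliferation. WDR26 is a WD40-repeat subunit of the CTLH ubiquitin ligase, a complex known to be active in maturing erythroblasts.

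Expression was given as FPKM, which divides fragment numbers by transcript length and library size, so levels of different genes can be set side by side. Judged by the step that 1 fragment makes in the lowest values, depth was about 24400000 to 26100000 fragments per library, with both genotypes in that range. Wdr26 itself stood at 9 and 7.84 FPKM in the knockout libraries, against 55.4 and 52.4 FPKM in the wild-type libraries (log2 change −2.55, limma adjusted p = 0.0063). All 8 of 8 erythroid markers examined passed the filter described next, whereas the lymphoid and fibroblast markers summed to at most 0.61 FPKM in any library. Only 5 of the 6 lymphoid and 2 of the 6 fibroblast markers had values in the data. The globin gene Hba-a1 stood at 122154 and 145241 FPKM in knockout and at 135652 and 168691 FPKM in wild type. The maturation stage of the sequenced cells was not tested. The test took the 10670 genes that reached 1 FPKM in 2 or more libraries, with limma on log2(FPKM + 1) and Benjamini-Hochberg adjustment over all of them, at a threshold of 0.05. Of these genes 5 were higher and 5 lower in knockout, which is 0.0937% of those tested. Aqp1 was too low to test, which left 8 of the 9 genes.

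The stretches of DNA around the starts of the 4 genes that differed most between genotypes (Foxo3, Hemgn, Fam46c and Ermap) are printed to show how unlike they are in base composition and in motifs of erythroid and forkhead factors. Each runs 5′ to 3′ from 250 bases before the RefSeq start to 50 bases after it (RefSeq, GRCm38.p6, which is mm10). Capitals mark matches, on either strand, to AGATAA or TGATAA, the letters that GATA factors favour.
Foxo3, chr10:42276646-42276945, minus strand: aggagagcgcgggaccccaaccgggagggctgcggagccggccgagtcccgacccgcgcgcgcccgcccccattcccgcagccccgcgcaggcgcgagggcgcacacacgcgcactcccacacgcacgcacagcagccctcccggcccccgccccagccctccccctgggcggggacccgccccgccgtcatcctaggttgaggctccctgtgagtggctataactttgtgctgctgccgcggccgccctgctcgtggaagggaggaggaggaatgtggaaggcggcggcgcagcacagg
Hemgn, chr4:46404134-46404433, minus strand: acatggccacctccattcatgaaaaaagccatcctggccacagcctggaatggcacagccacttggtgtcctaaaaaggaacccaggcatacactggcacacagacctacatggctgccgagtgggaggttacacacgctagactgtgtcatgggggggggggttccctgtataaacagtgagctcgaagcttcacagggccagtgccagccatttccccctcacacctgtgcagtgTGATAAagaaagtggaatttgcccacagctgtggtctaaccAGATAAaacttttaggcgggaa
Fam46c, chr3:100489143-100489442, minus strand: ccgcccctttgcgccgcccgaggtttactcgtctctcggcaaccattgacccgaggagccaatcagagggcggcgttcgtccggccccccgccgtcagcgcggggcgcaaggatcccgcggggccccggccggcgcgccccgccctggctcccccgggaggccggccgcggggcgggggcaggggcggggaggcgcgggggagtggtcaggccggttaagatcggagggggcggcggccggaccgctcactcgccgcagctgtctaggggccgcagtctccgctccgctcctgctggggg
Ermap, chr4:119189946-119190245, minus strand: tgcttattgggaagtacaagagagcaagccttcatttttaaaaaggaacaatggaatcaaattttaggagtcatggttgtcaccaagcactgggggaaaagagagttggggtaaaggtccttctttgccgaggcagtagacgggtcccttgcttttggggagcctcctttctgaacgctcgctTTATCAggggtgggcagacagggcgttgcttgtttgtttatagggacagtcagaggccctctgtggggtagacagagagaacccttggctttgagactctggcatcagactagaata
The Foxo3 and Fam46c windows were rich in G and C, at 75% and 78%, whereas the Hemgn and Ermap windows held 53% and 48.7%, near the median of 52.7% over all 32851 RefSeq windows of this length. Hemgn carried 2 GATA matches, beginning 13 bases before and 28 bases after the start, and Ermap carried 1, in the opposite orientation, beginning 67 bases before it. Windows with such a match made up 18.6% of all windows. The motifs CCACACCC (a letter string bound by KLF1, found in 3.56% of all windows), TGTTTAC (the forkhead core, 3.65%) and CACGTG (the E-box bound by MYC and MXI1 with MAX, 7.15%) had no match in the 4 windows, and none of the motifs overlapped another in them. Among the other genes, 1 forkhead match lay in the 3 windows of Mxi1, and the single windows of Fam210b, Tspan33 and Aqp1 matched none of the 4 motifs. Such matches describe the letters only and show no binding.

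Among the regulators in the nucleus, Foxo3 was lower in both knockout libraries, Hemgn was lower by less, and Mxi1 by less again, and no member of the trio passed the test. Foxo3 (gene ID 56484, chromosome 10, 42181845 to 42276695) encodes a forkhead transcription factor that is held out of the nucleus by AKT and that switches on antioxidant and maturation genes in mouse erythroblasts. It stood at 124 and 133 FPKM in knockout libraries 1 and 2, against 191 and 185 FPKM in wild-type libraries 1 and 2. The highest knockout value was 0.722 of the lowest wild-type value, so the genotypes were well apart compared with the gap inside each. Means were 129 ± 6.46 FPKM in knockout and 188 ± 4.65 FPKM in wild type (SD, n = 2 each), a ratio of 68.5% and a log2 difference of −0.54 (95% interval −0.86 to −0.23, limma adjusted p = 0.236). In bulk RNA of this kind, fewer cells with the transcript and less transcript per cell cannot be told apart.

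Hemgn (gene ID 93966, chromosome 4, 46393989 to 46404183) encodes hemogen, a nuclear protein of blood-forming cells and a known GATA1 target, and its window holds the GATA matches shown above. It stood at 91.3 and 76.9 FPKM in knockout and at 125 and 103 FPKM in wild type. Library 2 was lower than library 1 in both genotypes, and the distance from knockout library 1 to wild-type library 2 was smaller than the distance between the wild-type libraries. The log2 difference was −0.43 (95% interval −0.83 to −0.038, limma adjusted p = 0.399), with means of 84.1 ± 10.1 FPKM in knockout and 114 ± 15.5 FPKM in wild type (SD, n = 2 each).

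Mxi1 (gene ID 17859, chromosome 19, 53310128 to 53373293) encodes a MAX partner that represses genes MYC would activate. Its values were 55.5 and 64.4 FPKM in knockout and 73.7 and 70.4 FPKM in wild type. The genotypes did not overlap, but the 2 knockout libraries lay farther apart than the nearest knockout and wild-type libraries did. The log2 difference of −0.26 had an interval that spanned 0 (95% interval −0.60 to 0.071, limma adjusted p = 0.558). Leaving out knockout library 1 gave −0.16, and leaving out knockout library 2 gave −0.37. An exon of Mxi1 overlaps the annotated gene Gm10197 on the opposite strand, and since the sources used here do not give the strand of the reads, those of the pair cannot be told apart. The value also sums 3 RefSeq transcripts.

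**Figure D1:**
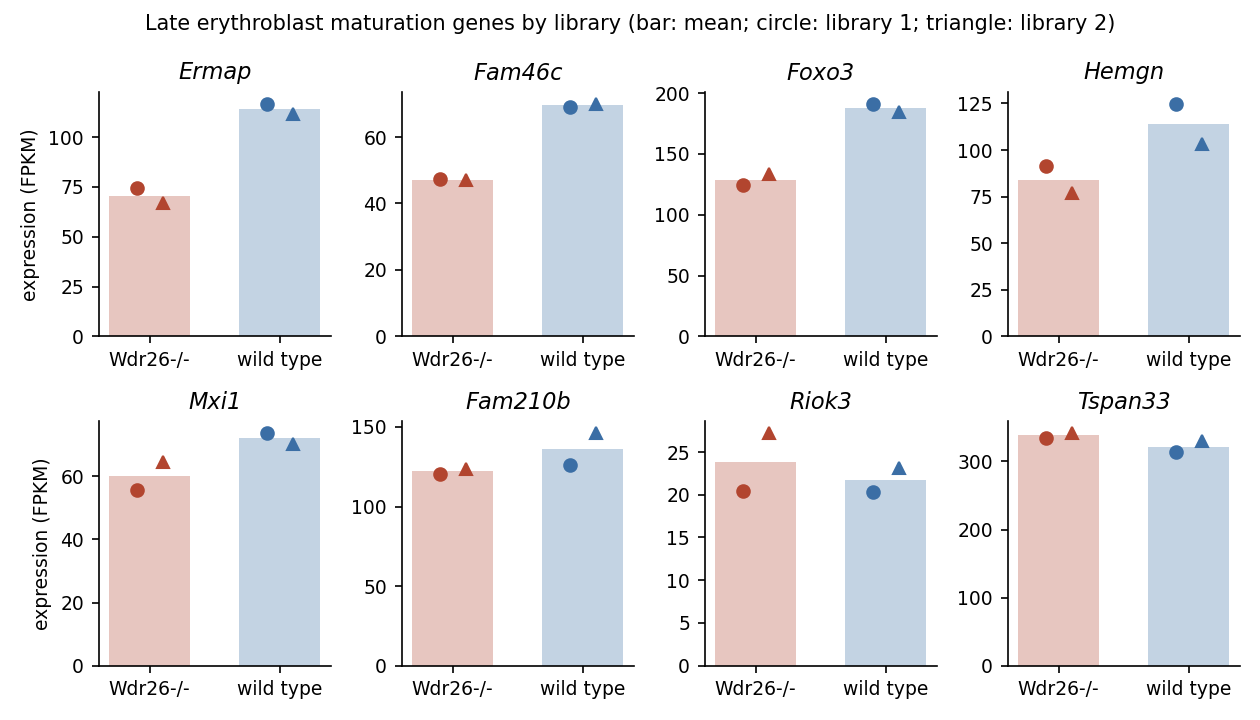
Expression in FPKM of the 8 tested genes in each library, with knockout (Wdr26-/-) left and wild type right, bars at the mean of 2 libraries, circles for library 1 and triangles for library 2. Ermap, Fam46c and Foxo3 show wide gaps between genotypes, at 61.8%, 67.8% and 68.5% of the wild-type mean, while Riok3 and Tspan33 stand at 110% and 105% of it.

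Of the genes for RNA handling, signalling and mitochondria, Fam46c was lower in knockout with very little spread, Fam210b was slightly lower, and Riok3 overlapped between genotypes. Fam46c (named Tent5c in RefSeq, gene ID 74645, chromosome 3, 100468057 to 100489192) encodes a cytoplasmic poly(A) polymerase that lengthens the tails of selected mRNAs. It was listed at 47.3 and 47.1 FPKM in knockout, against 69.0 and 70.05 FPKM in wild type. The libraries of each genotype lay within about 1 FPKM of each other. The means were 47.2 ± 0.127 FPKM in knockout and 69.5 ± 0.714 FPKM in wild type (SD, n = 2 each), so knockout held 67.8% of the wild-type level (log2 difference −0.55, 95% interval −0.85 to −0.25, limma adjusted p = 0.214). In limma the spread of each gene is drawn toward that of other genes of like level, so the standard error of 0.12 is wider than these values alone would give.

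Fam210b (gene ID 67017, chromosome 2, 172345570 to 172355749), which encodes a mitochondrial protein linked to iron supply for heme in maturing erythroid cells, stood at 120 and 124 FPKM in knockout and at 126 and 146 FPKM in wild type. The distance from knockout library 2 to wild-type library 1 was smaller than the distance between the wild-type libraries (log2 difference −0.15, 95% interval −0.49 to 0.19, limma adjusted p = 0.774). Leaving out wild-type library 2 gave a difference of −0.046, leaving out wild-type library 1 gave −0.26, and the genotypes overlapped after quantile normalization. Riok3 (gene ID 66878, chromosome 18, 12126091 to 12157367), which encodes an atypical kinase of the RIO family that mouse erythroblasts need to expel the nucleus, stood at 20.4 and 27.2 FPKM in knockout and at 20.3 and 23.1 FPKM in wild type. Library 2 was the higher library of each genotype, and the log2 difference of 0.12 (95% interval −0.31 to 0.55, limma adjusted p = 0.884) turned to −0.082 without knockout library 2.

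The membrane genes showed the widest range, with Ermap lowest relative to wild type of all 8, Tspan33 nearly level and Aqp1 hardly detected. Ermap (gene ID 27028, chromosome 4, 119175457 to 119190013) encodes a membrane protein of the immunoglobulin superfamily that carries the Scianna blood group in humans. It stood at 74.2 and 66.8 FPKM in knockout, against 117 and 111 FPKM in wild type. The highest knockout value was 0.667 of the lowest wild-type value. Means were 70.5 ± 5.25 FPKM in knockout and 114 ± 3.84 FPKM in wild type (SD, n = 2 each), a ratio of 61.8% and a log2 difference of −0.69 (95% interval −1.01 to −0.37, limma adjusted p = 0.166). With each library left out in turn, the log2 difference of Ermap lay between −0.76 and −0.61. Its values include 1 transcript assembled from the reads, as do those of Foxo3.

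Tspan33 (gene ID 232670, chromosome 6, 29694214 to 29718558), also called Penumbra, encodes a tetraspanin that escorts the protease ADAM10 and that mice need for normal red cell production. It was the most abundant of the 9 genes, at 335 and 342 FPKM in knockout and 313 and 330 FPKM in wild type. Both knockout libraries were higher, but the nearest libraries of the genotypes were closer to each other than the wild-type libraries were (log2 difference 0.074, 95% interval −0.25 to 0.40, limma adjusted p = 0.907), and the direction turned to −0.0032 when each library was centred on its median. Aqp1 (gene ID 11826, chromosome 6, 55336299 to 55348555), the water channel of the red cell membrane that carries the Colton blood group in humans, was listed at 0 in both knockout libraries and at 0.02 and 0 FPKM in wild type. It was thus at or near 0 in these cells in either genotype.

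Read together, 6 of the 8 tested genes had both knockout values below both wild-type values, and 1, Tspan33, had both above. Among all genes tested, 10.8% were lower in both and 29.9% were higher in both. None of the 8 passed over all genes in limma, and 4 of them (Ermap, Fam46c, Foxo3 and Hemgn) had an unadjusted p under 0.05 in limma, all lower in knockout. Of all genes tested, 2.40% were lower and 9.02% higher at that p. The median log2 difference over the 8 genes was −0.35, beside 0.067 over all genes tested. Because more genes were higher than lower in knockout, values centred on the median of each library were also read: 6 of the 8 again lay lower in both knockout libraries, 0 lay higher in both, the background was 20.1% lower and 19.9% higher, and the median over the 8 was −0.43. Set among all 10670 genes, 106 had a lower log2 difference than Ermap, 168 than Fam46c, 174 than Foxo3 and 277 than Hemgn.

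**Figure D2:**
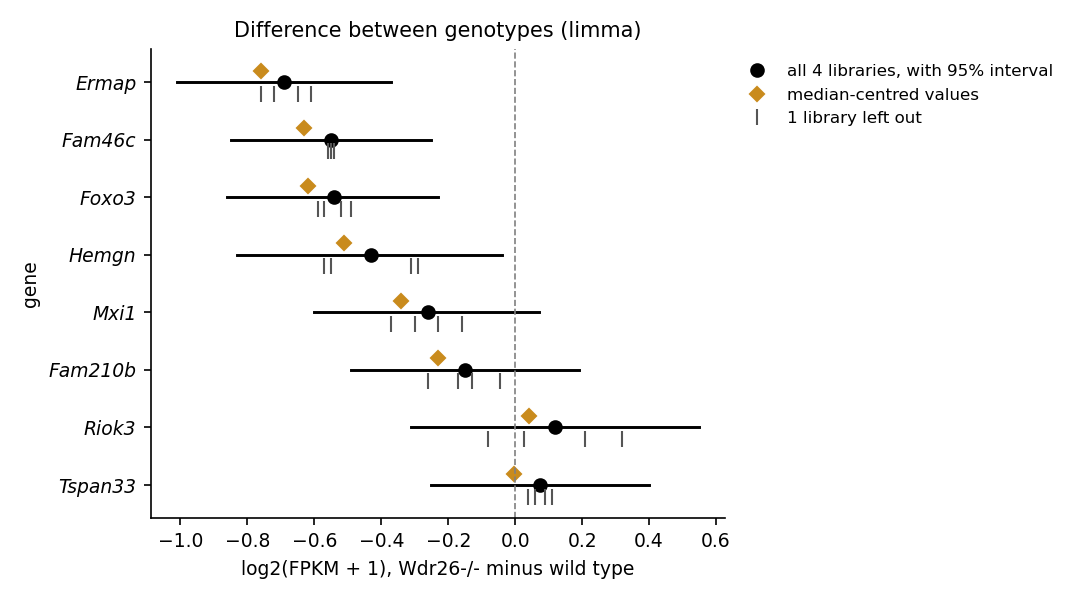
Difference in log2(FPKM + 1), knockout minus wild type, for the 8 tested genes (circles, with the 95% interval from limma), with the same difference in median-centred values (diamonds) and with each of the 4 libraries left out in turn (ticks). The intervals of Ermap, Fam46c, Foxo3 and Hemgn lie below 0 before any adjustment over genes, and that of Hemgn ends at −0.038.

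In level, the order in knockout was Tspan33, Foxo3, Fam210b, Hemgn, Ermap, Mxi1, Fam46c, Riok3 and Aqp1, and in wild type it was Tspan33, Foxo3, Fam210b, Ermap, Hemgn, Mxi1, Fam46c, Riok3 and Aqp1. Ermap and Hemgn overlapped in wild type, with 117 and 111 FPKM beside 125 and 103 FPKM. Mxi1 and Fam46c lay close in wild type, at 73.7 and 70.4 FPKM beside 69.0 and 70.05 FPKM, as did Ermap and Mxi1 in knockout, at 74.2 and 66.8 FPKM beside 55.5 and 64.4 FPKM. Foxo3 and Fam210b were near each other in knockout, at 124 and 133 FPKM beside 120 and 124 FPKM, but apart in wild type, at 191 and 185 FPKM beside 126 and 146 FPKM. Riok3 was the lowest of the tested genes, at percentile 69.7 of all genes tested by wild-type level, while the other 7 lay between percentiles 91.3 and 98.2.

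Other cell types could contribute transcripts, and their markers were read beside these genes. The 8 myeloid markers, 7 of them in the table, summed to 7.65 and 12.6 FPKM in knockout and to 3.86 and 4.16 FPKM in wild type. The most abundant of them was Prtn3, a granule protease gene, at 6.84 and 12.2 FPKM in knockout and 2.88 and 3.59 FPKM in wild type, while Elane was at 0 in every library and Mpo at no more than 0.11 FPKM. The 8 megakaryocyte markers summed to 280 and 290 FPKM in knockout and to 253 and 308 FPKM in wild type, overlapping between genotypes, with Gp6 at 0 in every library. Of the 5 tested, Itga2b, Gp9 and Gp1ba were higher in both knockout libraries, Vwf was lower in both and Pf4 overlapped. Of all genes tested, 29.9% were higher and 10.8% lower in both. The log2 differences were 0.086, 0.20 and 0.43 for Itga2b, Gp9 and Gp1ba, and −0.46 for Vwf. The part of either list in the differences above was not tested.

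The relatives of each gene show which paralogs these cells use. In every family with several tested genes, except the MAX network, the gene named above was the most abundant at the mean in both genotypes, apart from Aqp1 among the aquaporins. None of the relatives passed over all genes in limma.

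Among forkhead box O genes, Foxo4 stood at 45.7 and 57.3 FPKM in knockout and 41.8 and 57.2 FPKM in wild type, overlapping between genotypes. Foxo1 was at 6.34 and 7.03 FPKM in knockout and 5.7 and 5.34 FPKM in wild type, and Foxo6 at 4.13 and 5.59 FPKM in knockout and 2.72 and 3.94 FPKM in wild type. Both of these minor members were higher in both knockout libraries, as 29.9% of all genes tested were, with log2 differences of 0.24 and 0.44 (limma adjusted p = 0.628 for Foxo1 and 0.525 for Foxo6). With median-centred values this held for 1 of the pair, Foxo1, and Foxo6 overlapped between genotypes. Whether the difference in Foxo3 departs from those of its relatives was not tested.

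In the MAX network, where MXI1 and the MXD proteins compete with MYC for MAX, 10 of the 12 genes in the table were tested, 3 of them lower and 1 higher in both knockout libraries, beside 10.8% and 29.9% of all genes tested. With median-centred values 5 were lower and 1 higher in both, beside 20.1% and 19.9%. Mxd4, a repressor of the same class as Mxi1 and the most abundant gene of the network, stood at 124 and 124 FPKM in knockout and at 104 and 93.8 FPKM in wild type (log2 difference 0.32, limma adjusted p = 0.432). Mxd1 went with Mxi1, at 27.5 and 32.4 FPKM in knockout and 33.3 and 38.8 FPKM in wild type (log2 difference −0.26, limma adjusted p = 0.613). Mnt differed little, at 12.5 and 11.5 FPKM in knockout and 12.9 and 12.6 FPKM in wild type. Myc varied with the library number far more than with genotype, at 66.8 and 25.7 FPKM in knockout and 56.1 and 31.5 FPKM in wild type. Max itself overlapped, at 56.0 and 45.2 FPKM in knockout and 46.1 and 37.0 FPKM in wild type. Mlx, Mlxip, Mga and Mxd3 also overlapped between genotypes, with log2 differences between −0.058 and 0.0022.

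Of the other tetraspanins that partner ADAM10, Tspan14 and Tspan5 had higher values in both knockout libraries, as 29.9% of all genes did. Tspan14 stood at 26.1 and 24.7 FPKM in knockout and 21.4 and 20.4 FPKM in wild type, and Tspan5 at 9.26 and 9.47 FPKM in knockout and 7.36 and 6.46 FPKM in wild type (log2 differences 0.27 and 0.39, limma adjusted p = 0.519 and 0.387). Tspan17 overlapped between genotypes. Adam10, the protease itself, was lower in both knockout libraries, at 64.5 and 64.0 FPKM, against 76.5 and 68.9 FPKM in wild type (log2 difference −0.17, limma adjusted p = 0.713).

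In the Fam46 and Fam210 families the relatives were scarce beside Fam46c and Fam210b. Fam46a stood at 4.27 and 6.13 FPKM in knockout and 4.94 and 5.33 FPKM in wild type, and Fam46b at 2.72 and 2.55 FPKM in knockout and 2.03 and 1.52 FPKM in wild type. Fam210a, the paralog of Fam210b, stood at 4.65 and 5.07 FPKM in knockout and 5.26 and 4.54 FPKM in wild type. Riok1 and Riok2, which act in ribosome assembly, overlapped between genotypes at 11.6 and 10.5 FPKM and at 4.13 and 4.05 FPKM in knockout, and at 12.1 and 10.7 FPKM and at 4.58 and 3.72 FPKM in wild type. Among aquaporins, where Aqp1 was at or near 0, Aqp9, a channel for glycerol and other small solutes, was the most abundant, at 5.72 and 11.1 FPKM in knockout and 6.96 and 13.3 FPKM in wild type, and Aqp11 stood at 1.13 and 1.48 FPKM in knockout and 1.09 and 0.69 FPKM in wild type. Aqp3 stayed below the filter, at 0.75 and 1.04 FPKM in knockout and 0.98 and 0.71 FPKM in wild type. Exons of Foxo1, Mxd4, Mxd3, Mlx, Mlxip, Riok1, Riok2 and Fam210a overlap other annotated genes, so reads of these pairs cannot be told apart.

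**Figure D3:**
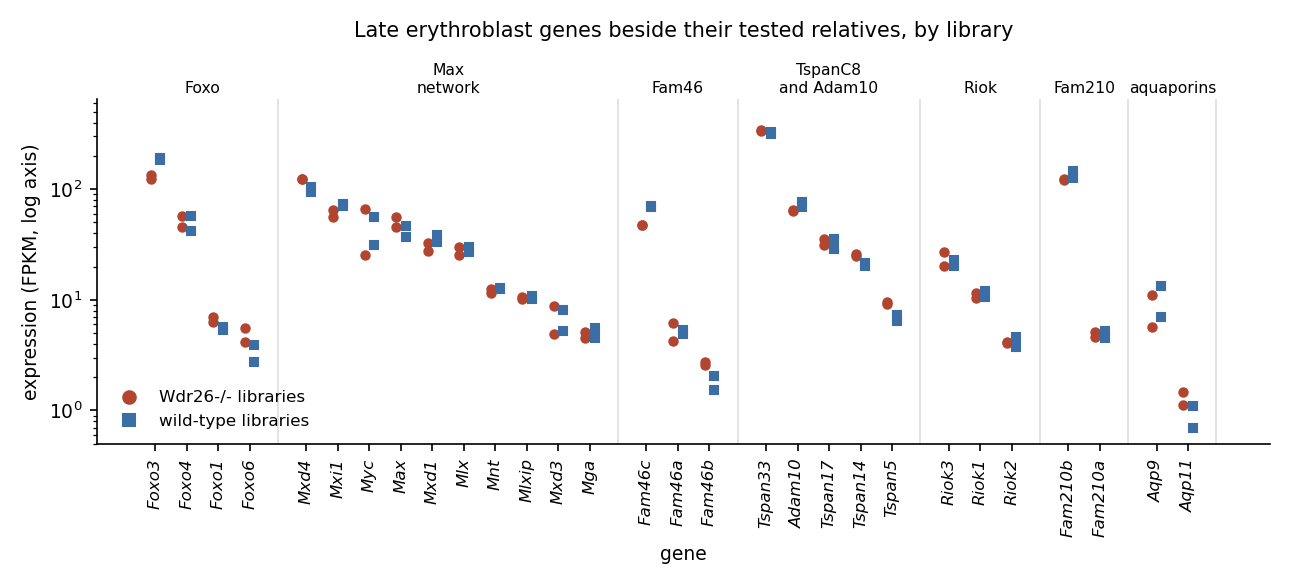
Expression in FPKM on a log axis of the tested genes of each family, ordered by wild-type mean within the family, with knockout libraries as circles (left) and wild-type libraries as squares (right). Foxo3, Fam46c, Tspan33, Riok3 and Fam210b stand above their relatives in both genotypes, and the Foxo3 and Fam46c points separate by genotype.

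Other genes of late erythroblasts were taken as a list of 32, all of which were tested. None passed over all genes in limma, 3 were at an unadjusted p under 0.05, and these 3 were lower in knockout. At that p 2.40% of all genes tested were lower and 9.02% higher. Of the 32, 14 (43.8%) lay lower in both knockout libraries, and 5 (15.6%) lay above the wild-type pair, beside 10.8% and 29.9% of all genes tested. With median-centred values the counts were 15 and 4, beside 20.1% and 19.9%. The median log2 difference was −0.20, beside 0.067 over all genes tested. The widest differences among genes that did not overlap were those of Slc4a1, Ypel4 and Epb42 on the lower side and of Tal1, Hagh and Xpo7 on the higher side. Slc4a1, the band 3 anion exchanger, stood at 48.6 and 6.70 FPKM in knockout, against 436 and 285 FPKM in wild type (log2 difference −4.18, limma adjusted p = 0.166), a difference far wider than that of any of the 9 genes. Ypel4, of the Yippee family of zinc-binding proteins, stood at 1.87 and 1.05 FPKM in knockout and 4.64 and 3.73 FPKM in wild type (log2 difference −1.09, limma adjusted p = 0.183). Epb42, protein 4.2 of the membrane skeleton, stood at 17.7 and 7.13 FPKM in knockout and 29.9 and 18.4 FPKM in wild type, where knockout library 1 lay close to wild-type library 2. On the higher side Tal1, an erythroid transcription factor, stood at 237 and 223 FPKM in knockout and 197 and 187 FPKM in wild type (log2 difference 0.26, limma adjusted p = 0.543). Hagh, a glyoxalase, had a log2 difference of 0.26, and Xpo7, a nuclear exporter used in erythroblast chromatin condensation, one of 0.24 at no more than 4.85 FPKM in any library. The exons of Xpo7 overlap Npm2 on the same strand, so its value is uncertain.

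Genes known as targets or partners of FOXO factors were read because Foxo3 was lower. Of 22 genes 20 were tested, none passed over all genes in limma, and 3 had an unadjusted p under 0.05, all lower in knockout. Of all genes tested, 2.40% were lower and 9.02% higher at that p. The median log2 difference over the 20 was 0.0055, beside 0.067 over all genes tested. With median-centred values 5 of the 20 lay lower and 2 higher in both knockout libraries, beside 20.1% and 19.9% of all genes tested. Without centring 3 (15%) lay lower and 3 (15%) higher in both, beside 10.8% and 29.9%. The lower ones were Irs2, an insulin receptor adaptor, at 65.6 and 80.5 FPKM in knockout and 98.3 and 130 FPKM in wild type, the mitophagy gene Bnip3, at 116 and 152 FPKM in knockout and 163 and 222 FPKM in wild type, and the cell death gene Bcl2l11, at 15.4 and 13.3 FPKM in knockout and 22.3 and 18.7 FPKM in wild type. The higher ones were Cited2, Btg1 and Gabarapl1, with log2 differences of 0.25, 0.24 and 0.080. Txnip, the most abundant of the list, and the antioxidant genes Cat and Sod2 overlapped between genotypes, Cat with 54.1 and 72.6 FPKM in knockout and 64.6 and 76.0 FPKM in wild type. Txnip was singled out for its level and Cat and Sod2 for their function after their values were seen. Exons of Irs2, Bnip3, Gabarapl1 and Txnip overlap other annotated transcripts.

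Genes of erythroid progenitors and early blood cells were read as a counterpart to the late program. Of 14 genes 9 were tested, none passed over all genes in limma, 2 had an unadjusted p under 0.05, and both were higher in knockout, where 9.02% of all genes tested were higher at that p. Of the 9, 3 (33.3%) lay higher and 0 lower in both knockout libraries, beside 29.9% and 10.8% of all genes tested. With median-centred values the counts were again 3 and 0, beside 19.9% and 20.1%. The median log2 difference was 0.12. The 3 were the ETS factor gene Fli1, at 10.5 and 11.3 FPKM in knockout and 6.28 and 5.87 FPKM in wild type (log2 difference 0.75, limma adjusted p = 0.158), Gata2, at 4.11 and 4.52 FPKM in knockout and 2.49 and 2.53 FPKM in wild type (log2 difference 0.60, limma adjusted p = 0.254), and Etv6, at 7.59 and 7.52 FPKM in knockout and 6.15 and 5.56 FPKM in wild type (log2 difference 0.32, limma adjusted p = 0.476). Exons of Etv6 overlap an annotated antisense transcript. Kit, the stem cell factor receptor gene, was listed at 0 in all 4 libraries. Myb, too low to test, was lower in both knockout libraries, at 0.67 and 0.24 FPKM in knockout and 1.04 and 0.92 FPKM in wild type. The other 6 tested genes of the list overlapped between genotypes.

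**Figure D4:**
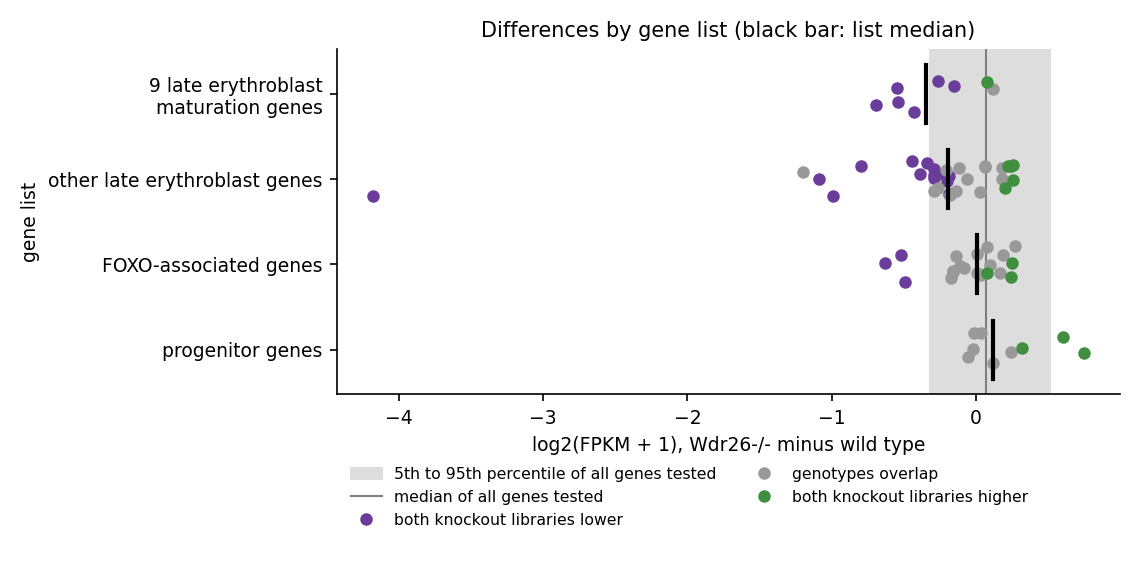
Difference in log2(FPKM + 1), knockout minus wild type, of each tested gene of 4 lists, coloured by whether the libraries of the genotypes overlap, with the list median as a black bar and the 5th to 95th percentile of all genes tested, −0.32 to 0.51, in grey. The list medians are −0.35, −0.20, 0.0055 and 0.12 from top to bottom, and the far point at the left is Slc4a1.

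Genes whose pattern over the 4 libraries was nearest to these were sought for the 4 with a log2 range of at least 0.5, among 5837 tested genes with a mean of at least 10 FPKM, by the root mean square distance between deviations from each gene's own log2 mean. Among the genes near Ermap was Slc25a39, a mitochondrial glutathione carrier gene (distance 0.0335). It stood at 140 and 120 FPKM in knockout and 220 and 199.9 FPKM in wild type. Nearest to Fam46c were Egln1, an oxygen-sensing prolyl hydroxylase gene, and Pspc1 (distances 0.0174 and 0.0334). Egln1 stood at 35.5 and 34.6 FPKM in knockout and 50.8 and 53.0 FPKM in wild type. Nearest to Foxo3 were Fam46c itself and Bzw2 (distances 0.0455 and 0.0465), and nearest to Hemgn were Bmp2k and Hnrnpa3 (distances 0.0118 and 0.0207). Exons of Bmp2k overlap Paqr3, and exons of Hnrnpa3 overlap the annotated miRNA gene Gm24574 on the same strand. Reads of Hnrnpa3 may also be shared with pseudogene copies, which was not checked. The values of Bmp2k and Hnrnpa3 are therefore uncertain. The distances rest on only 4 libraries and are given as a description.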

How the data were processed

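RNA from 2 Wdr26-/- and 2 wild-type samples of DS19 cells was sequenced with an Illumina HiSeq, per the labels' protocols. The deposited table gives 1 value per gene and library, identified as FPKM because values times transcript length summed to between 1.02e+09 and 1.04e+09 in each library. TopHat2 and mm10 are named in the submitters' processing notes, and what computed the FPKM was not given in the sources used here. Symbols turned into dates (24) were restored through gene IDs, of which 16316 matched the RefSeq gene table of GRCm38.p6. Transcript lengths came from GENCODE M21. Depth was estimated from the lowest values of short genes, assuming an effective length 200 bases shorter than the transcript, and is approximate, so no counting intervals were computed.

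Values were converted to log2(FPKM + 1), which understates changes of low genes, filtered at 1 FPKM in at least 2 libraries and compared with limma 3.58.1 in R 4.3.3 (eBayes with a mean-variance trend, no covariates), with Benjamini-Hochberg adjustment. Percentages and ratios of FPKM are ratios of group means. An exact permutation test on 2 against 2 libraries cannot go below p = 0.333 (two-sided), so none was run. The procedure was also run on simulated data, with noise set by the wild-type pair and independent between libraries. The knockout pair varied more (SD of the log2 difference between libraries 0.36, against 0.268 in wild type). The simulation therefore does not measure how often differences in these data are found. Tables and figures were made with pandas 2.3.3 and matplotlib 3.10.9, and motifs were searched in RefSeq promoter windows, of which 8 of the 9 genes were matched. The 9 genes, the lists and the rules for naming genes were chosen with earlier results of these data known. The rule named the 9 genes, their tested relatives, the 3 widest differences per side in each list and the nearest genes by pattern, of which 1 is not reported here. The alternatives were other scalings, filters, pseudocount and variance model, a block for the library number, and leaving out each library.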

Additional observations from a re-analysis of the deposited data

How the results depend on the processing

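None of the 8 tested late erythroblast genes passed in limma under 10 of the 12 alternatives. Of the 96 values of single genes under the alternatives, 89 kept their direction and their side of the threshold. Tspan33 turned to −0.0032 with median-centred values while Riok3 had −0.082 when knockout library 2 was left out and 0.32 when knockout library 1 was. Ermap, Fam46c, Foxo3 and Hemgn kept a lower value in knockout under all 12 alternatives, between −0.76 and −0.61, −0.63 and −0.54, −0.62 and −0.49, and −0.57 and −0.29 on the log2 scale. With single libraries left out, the number of the 9 genes past the threshold ran from 0 to 1, the 1 being Ermap without knockout library 1. The counts over all genes, 5 higher and 5 lower, were unstable. With single libraries left out they ran from 0 to 431 higher and from 3 to 307 lower: leaving out wild-type library 1 gave 0 and 3 in limma, with 578 genes at an unadjusted p under 0.05, leaving out wild-type library 2 gave 1 and 4, leaving out knockout library 1 gave 431 and 307, and leaving out knockout library 2 gave 225 and 103. Quantile normalization gave 3 higher, leaving out the globin genes gave 14 lower, no filter gave 0 higher and 0 lower in limma (1692 at an unadjusted p under 0.05), and a mean of at least 5 FPKM gave 1 and 1. The cause was not tested. The labels do not say that the library numbers pair the samples. Same-numbered libraries deviated together across genes (correlation 0.606 over 10670 genes), and with the library number as a block 1388 genes were higher and 475 lower past the threshold, and 4 of the 9 genes passed (Ermap, Fam46c, Foxo3 and Hemgn, all lower). That fit leaves a single residual degree of freedom to each gene. The fits with a library left out do so too, and they assume that the lone library varies like the pair. With 2 libraries per genotype the number of libraries limits precision, and at this depth values near 0, such as those of Aqp1, rest on few fragments.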
